A study of Mus musculus with 6 samples.

Results

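Integrins are the cell-surface receptors with which blood cells hold on to each other, to vessel walls and to matrix. The 10 leukocyte integrin genes described here are Itgal, Itgam, Itgax, Itgad, Itgb2, Itga4, Itga5, Itgb1, Itgb3 and Itgb7. They were taken by name out of the 23282 genes counted, and all 10 were found by their NCBI gene numbers. Each receptor is a pair of an alpha and a beta subunit, and a subunit reaches the surface mainly once it has found its partner. The beta2 subunit pairs with the 4 alpha subunits of Itgal (CD11a), Itgam (CD11b), Itgax (CD11c) and Itgad (CD11d), and these receptors serve adhesion and phagocytosis in white cells. The beta1 subunit pairs with many alphas, among them alpha4 and alpha5. The alpha4 subunit also pairs with beta7, a gut-homing receptor of lymphocytes, and beta3 is best known from platelets.

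RNA was counted in 9 libraries of mouse blood-forming cells in 6 groups, all on a mixed 129/Sv and C57BL/6 background. LSK cells are the marrow fraction that lacks lineage markers and carries Sca1 and c-Kit, and holds stem cells and early progenitors. Of the LSK libraries 1 was labelled Mll4f/f with Cre (here LSK Mll4 deleted) and 1 wild type. Both came from littermates aged 2 months that carried MxCre, a Cre transgene induced in blood cells and other tissues by interferon, and both received polyIC. Each was made from about 50 hand-picked cells with heavy PCR amplification. The other 7 libraries came from whole bone marrow cells transformed with MLL-AF9, a leukaemia fusion oncogene, and grown for 14 days. Of these, 2 were labelled Mll4f/f with a retrovirus carrying Cre and Tomato Red (Mll4 deleted) and 2 Mll4f/f with the empty Tomato Red vector (Mll4 intact), from marrow that also carried MxCre. Cells of both kinds carrying GFP and Tomato were sorted 5 days after that infection, so Cre itself goes with the deletion. A separate transformation started from marrow labelled MLL4-/-, with MLL-AF9-neo, selection in G418 and sorting of GFP. Of that, 2 libraries carried FOXO3, a transcription factor, on a retrovirus with GFP, and 1 carried the empty vector. Mll4, or Kmt2d, encodes a histone methyltransferase that marks enhancers.

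Totals ranged from 25895041 to 61950773 counts per library. Levels are given in CPM, the counts of a gene scaled to a common library total. Kmt2d, counted over the whole gene, stood at 95.6 and 73.7 CPM in the MLL-AF9 libraries labelled Mll4 deleted, against 79.5 and 61.7 CPM in the intact ones. In LSK cells it had 13.9 CPM in the library labelled Mll4 deleted and 1.88 CPM in the wild-type one, which goes against the label. Which exons the floxed allele loses is not given in the sources used here. These counts therefore do not check the deletion, and each direction below rests on the labels. Foxo3 stood at 1292 and 1309 CPM in the FOXO3 libraries, against 27.3 CPM with the empty vector. The chi-square of counts per degree of freedom between the 2 libraries of a group was 191 for the Mll4 deleted libraries, 146 for the intact ones and 1.97 for those with FOXO3. The labels do not say whether the libraries of a pair were grown separately. By Xist and the Y-linked Ddx3y, the libraries of the deleted pair were of opposite sex, as were those of the intact pair, so these pairs did not come from 1 animal. For the FOXO3 pair, both male, the spread may be technical. The FOXO3 pair enters the shared estimate of that spread, and adjusted p-values with it summed into 1 library are given where they end a call.

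Itgam, Itgax and Itgad stood next to each other on chromosome 7 in the RefSeq annotation of GRCm38.p6, in that order with no other coding gene between them. The promoter windows of Itgax and Itgam, 250 bases before to 50 after the annotated start, are shown because Itgax was called for Mll4 loss and its neighbour Itgam was not, a difference between the genes that was not itself tested. The Itgax window is chr7:128129300-128129599 and the Itgam window chr7:128062390-128062689, both on the plus strand. Capitals mark short cores searched on both strands: GAGGAA for PU.1, TGTGGT for RUNX factors and the GC box GGGCGG for SP1. Sequences are RefSeq's for GRCm38.p6.
Itgax: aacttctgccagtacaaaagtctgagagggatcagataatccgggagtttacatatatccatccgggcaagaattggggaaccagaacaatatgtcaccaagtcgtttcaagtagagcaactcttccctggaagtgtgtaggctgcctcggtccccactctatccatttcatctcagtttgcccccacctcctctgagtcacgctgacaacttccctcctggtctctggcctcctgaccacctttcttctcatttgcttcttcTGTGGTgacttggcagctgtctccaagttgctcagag
Itgam: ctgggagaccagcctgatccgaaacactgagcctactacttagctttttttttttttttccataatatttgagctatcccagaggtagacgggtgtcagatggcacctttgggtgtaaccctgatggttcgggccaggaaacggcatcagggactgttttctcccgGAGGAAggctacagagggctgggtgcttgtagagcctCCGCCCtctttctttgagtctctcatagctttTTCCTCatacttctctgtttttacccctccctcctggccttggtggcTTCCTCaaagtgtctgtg
The Itgam window held the PU.1 core at 3 places, at −84, −15 and 33 from the start site, and a GC box at −47. The Itgax window held the RUNX core at 14 and neither other core. Of all 32851 promoter windows, 28.3% held GAGGAA, 16.8% TGTGGT and 35.7% GGGCGG, so each match is common and only describes the letters. The table had windows for 6 of the 10 genes, the others being those of Itga4, Itga5, Itgb1 and Itgb7. Itgad, Itgal, Itgb2 and Itgb3 are named only.

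**Figure D1:**
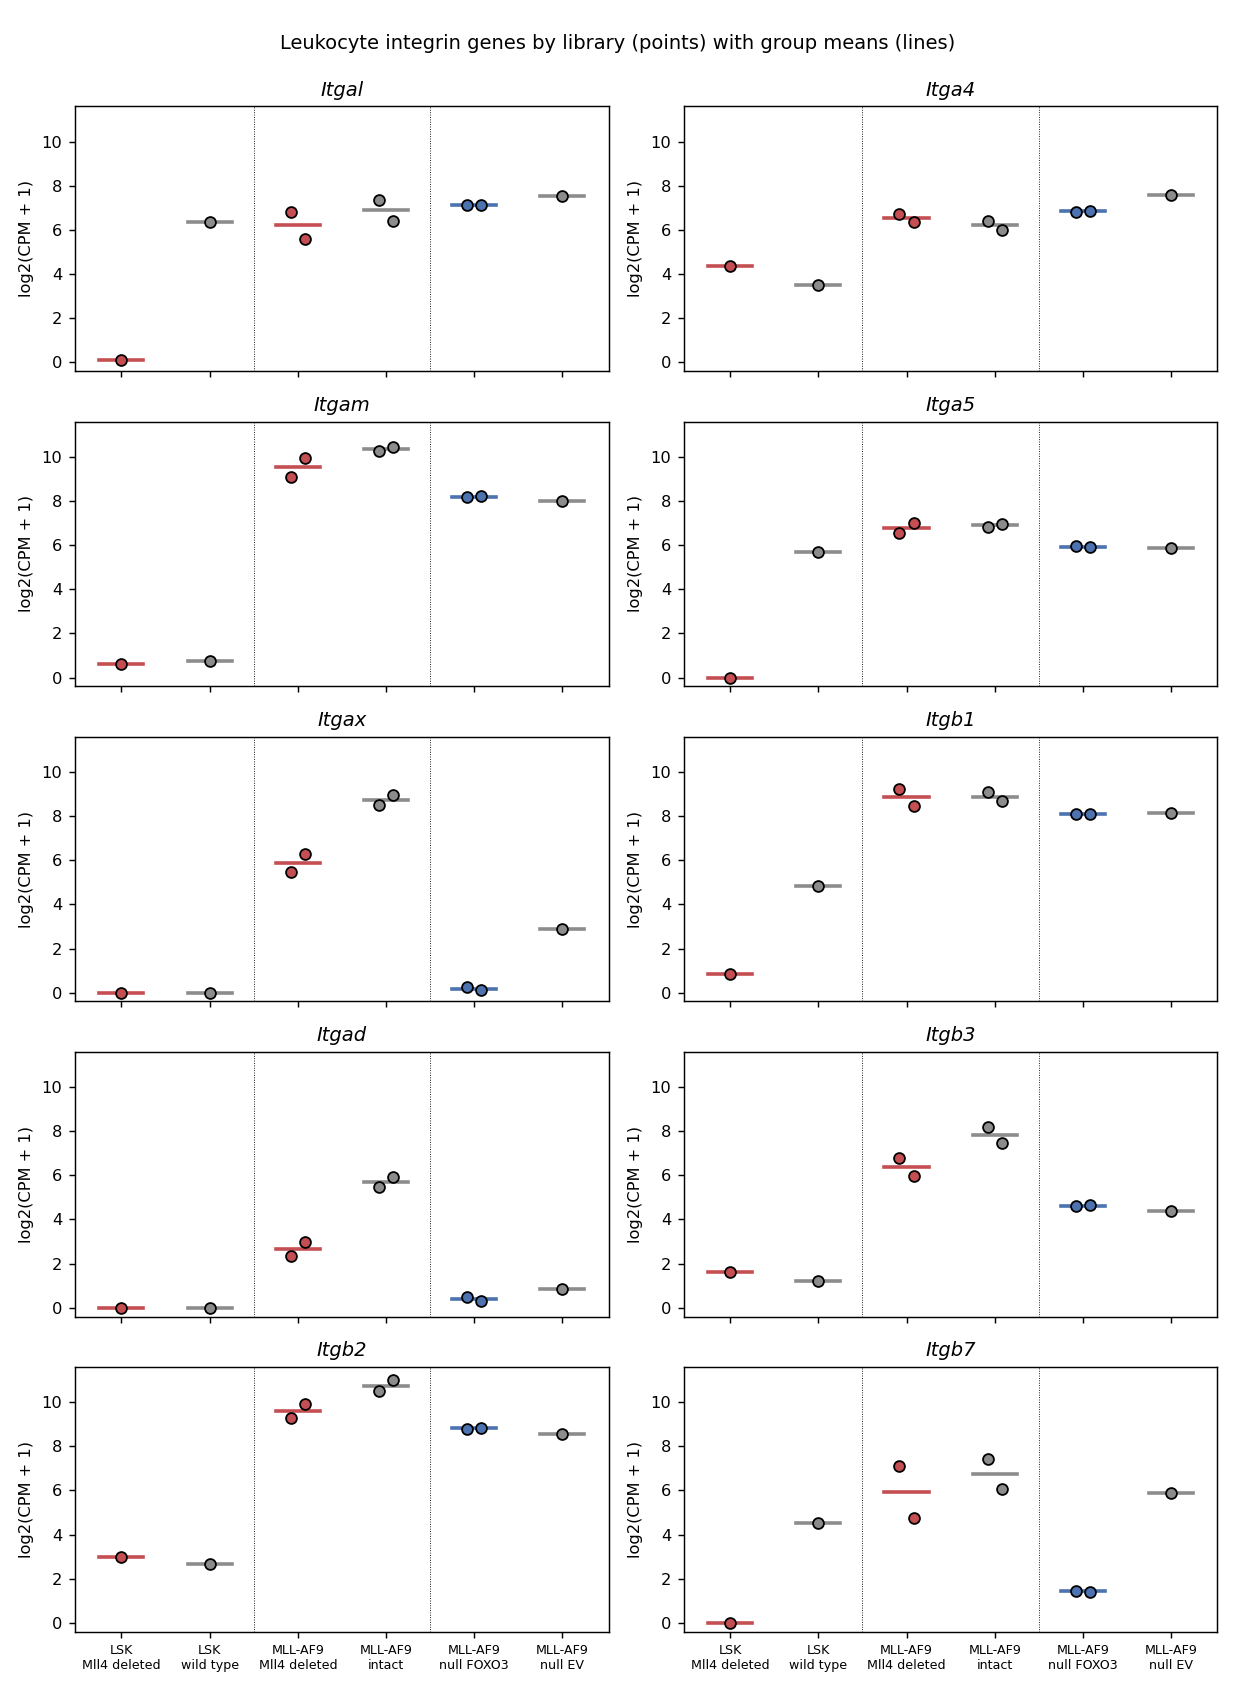
Level of each of the 10 genes in each library, as log2(CPM + 1), in the 6 groups; points are libraries and horizontal lines group means, and dotted lines separate LSK cells, the Cre experiment and the FOXO3 experiment. Itgax and Itgad are lower in cells labelled Mll4 deleted than in intact cells and lower again in the Mll4-null cells, while Itgal and Itga4 are highest in the empty-vector library.

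Of the beta2 family, Itgb2 and Itgam were abundant in every MLL-AF9 library. Levels of different genes were compared per kb of coding sequence. On that scale Itgb2 averaged 345 ± 102 CPM per kb in cells labelled Mll4 deleted and 754 ± 183 in intact cells (SD, n = 2 each). Itgam averaged 219.5 ± 88.0 CPM per kb in the deleted group and 373 ± 31.4 in the intact group. Itgax had 17.0 ± 6.51 CPM per kb in the deleted group and 123 ± 27.3 in the intact group, where only Itgb2, Itgam and Itgb1 stood higher. Itgax RNA thus ranked well below Itgb1 and Itgam in the deleted cells. Itgad was the lowest of the 10 in both groups, at 1.51 ± 0.554 CPM per kb in the deleted group and 14.5 ± 3.27 in the intact group. In the Mll4-null cells with FOXO3, Itgb2 averaged 193.9 ± 0.543 CPM per kb, against 165 with the empty vector. Itgax had 0.0396 ± 0.0201 CPM per kb with FOXO3, the lowest of all members, and 1.81 with the empty vector, where only Itgad stood lower. Lengths matter most for Itga4, whose transcript is mostly untranslated: it had 23.8 CPM per kb of coding sequence but 7.54 per kb of transcript in the intact group.

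Loss of Mll4 in MLL-AF9 cells was compared over the Cre and empty-vector libraries. The genes for CD11c and CD11d, for the beta2 subunit and for beta3 were lower in the cells labelled Mll4 deleted, and no member was called higher. A gene was called at a Benjamini-Hochberg adjusted p under 0.05 in edgeR's quasi-likelihood test over all 14997 genes tested, and 14.9% of them were called, 7.97% higher and 6.94% lower. Of the 10 members, all tested, 4 were called lower and 0 higher. DESeq2 called 5 members lower and 0 higher, where it called 12.2% of all genes lower and 13.2% higher. At an unadjusted p under 0.05 there were 5 members lower and 0 higher, beside 17.2% of all genes lower and 16.7% higher. The members' median log2 fold change was −0.98, beside −0.03 over all genes. With the FOXO3 pair summed, Itgax and Itgad were still called, and Itgb2 and Itgb3 were not, where 2.08% of all genes were called.

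Itgax (16411) encodes CD11c, carried by dendritic cells and many macrophages. It had 43.5 and 75.8 CPM in the libraries labelled Mll4 deleted, against 363 and 498 CPM in the intact ones. Both deleted libraries thus lay far below both intact ones. Itgax fell by 3.15 ± 0.36 (SE) on the log2 scale, at an adjusted p of 0.0109 by edgeR, and 0.0484 with the FOXO3 pair summed. Fitted on those 4 libraries only, the log2 fold change was −3.08 and the adjusted p 0.0540.

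Itgad (381924) encodes CD11d, known from macrophages of the spleen and other tissues. It had 4.02 and 6.84 CPM in the libraries labelled Mll4 deleted, against 44.0 and 60.7 CPM in the intact ones, and the groups did not overlap. Its log2 fold change was −3.57 ± 0.38. The adjusted p was 0.00986 by edgeR, 0.0484 with the FOXO3 pair summed and 0.0518 in the 4 libraries alone. Itgax and Itgad are near copies in part: 16.9% of the 50-base words of the Itgad transcript also occur in other genes, Itgax among them, and 9.61% of those of Itgax occur in Itgad. For every 100 Itgax counts there were 9.25 and 9.03 Itgad counts in the deleted libraries and 12.1 and 12.2 in the intact ones. How far the counting shared reads between these neighbours was not tested, so the Itgad values are uncertain.

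Itgb2 (16414) encodes beta2, or CD18, without which none of the 4 partner alphas is displayed. It had 630 and 965 CPM in the libraries labelled Mll4 deleted, against 1445 and 2041 CPM in the intact ones, again without overlap. Its log2 fold change of −1.42 ± 0.29 (adjusted p = 0.0329 by edgeR) was no longer called with the FOXO3 pair summed (adjusted p = 0.0950). It was also lost when deleted library 1, either intact library or either FOXO3 library was left out, with adjusted p from 0.0527 to 0.0958, and with library sex as a term (adjusted p = 0.0718). Itgam (16409), the CD11b gene of monocytes and neutrophils, had 551 and 986 CPM in the deleted libraries, against 1229 and 1385 CPM in the intact ones. These also did not overlap, but the log2 fold change of −1.05 ± 0.29 missed the threshold (adjusted p = 0.0647 by edgeR), and it passed without deleted library 2 (adjusted p = 0.0156). Of the 50-base words of the Itgam transcript, 91.8% also occur in Gm49368, an overlapping gene model of the GENCODE vM21 annotation that has no row among the counts. Itgal (16408), the CD11a gene found on nearly all leukocytes, had 112 and 47.0 CPM in the deleted libraries, against 164 and 85.0 CPM in the intact ones. These groups overlapped, and the log2 fold change was −0.90 ± 0.45 (adjusted p = 0.217 by edgeR). Without deleted library 1 it was −1.59 (adjusted p = 0.0480).

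The makeup of the beta2 partners at the RNA level differed between the groups. Itgax made up 6.14% and 6.79% of the summed CPM per kb of the 4 alpha genes in the libraries labelled Mll4 deleted, against 20.2% and 24.6% in the intact ones. Itgam took 77.9% and 88.5% in the deleted libraries and 68.5% and 68.4% in the intact ones. The Itgax shares did not overlap, nor did those of Itgam. Itgal varied more within a group than between them, with 15.4% and 4.10% in the deleted libraries and 8.91% and 4.08% in the intact ones. The shares are a description with no test.

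**Figure D2:**
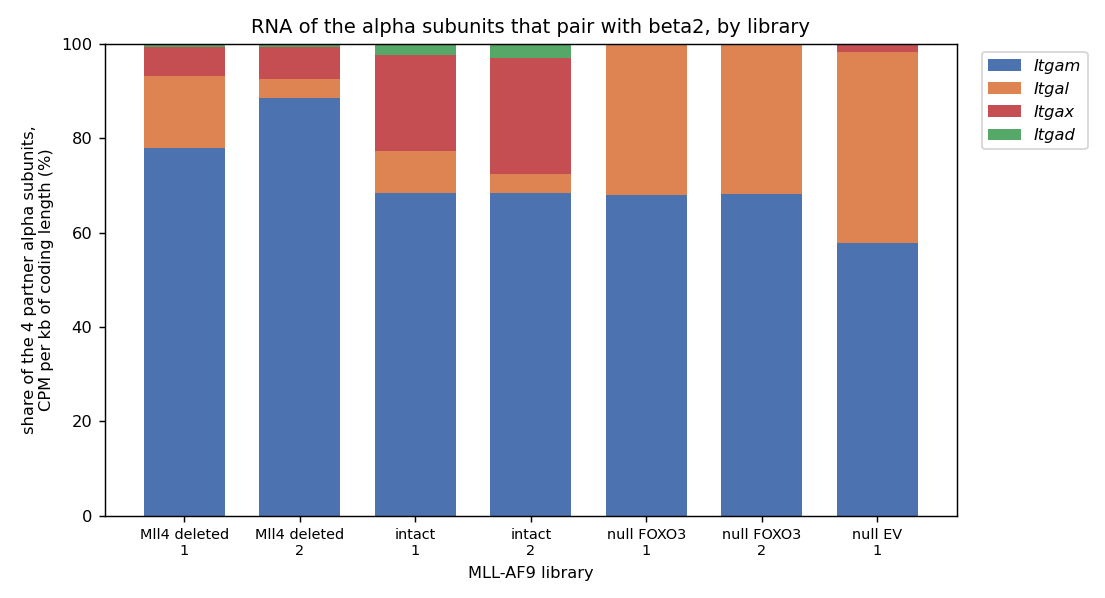
Share of each of the 4 alpha subunit genes that pair with beta2 in their summed CPM per kb of coding sequence, in percent, as stacked bars for the 7 MLL-AF9 libraries. Itgax takes 6.14% and 6.79% in the libraries labelled Mll4 deleted, 20.2% and 24.6% in the intact ones and at most 1.43% in the Mll4-null cells, where Itgal takes 31.8% to 40.6%.

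The other 5 genes encode beta3 and the alpha4, alpha5, beta1 and beta7 subunits. Itgb3 (16416) had 110 and 61.8 CPM in the libraries labelled Mll4 deleted, against 291 and 177 CPM in the intact ones, without overlap. The log2 fold change of −1.71 ± 0.32 was called (adjusted p = 0.0260 by edgeR), but not with the FOXO3 pair summed (adjusted p = 0.0771). It was also lost without either intact or either FOXO3 library, with adjusted p from 0.0555 to 0.0977, and with library sex as a term (adjusted p = 0.0591). Itga2b, whose product joins beta3 in the platelet fibrinogen receptor, had 270 and 37.1 CPM in the deleted libraries, against 266 and 130 CPM in the intact ones (log2 fold change −0.62 ± 0.84, adjusted p = 0.644 by edgeR). Itgav, the other alpha partner of beta3, had 42.8 and 30.8 CPM in the deleted libraries, against 25.4 and 28.5 CPM in the intact ones (0.16 ± 0.19, adjusted p = 0.598). Neither alpha partner was thus called with Itgb3.

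Itga4 (16401), the alpha4 gene of receptors for VCAM-1 and fibronectin, had 105 and 81.4 CPM in the libraries labelled Mll4 deleted, against 85.1 and 62.1 CPM in the intact ones. Itga5 (16402), the alpha5 gene of the main fibronectin receptor, had 93.0 and 126 CPM in the deleted libraries, against 112 and 123 CPM in the intact ones. Itgb1 (16412), the common beta1 partner, had 606 and 351 CPM in the deleted libraries, against 541 and 408 CPM in the intact ones. All 3 overlapped between the groups in CPM. Their log2 fold changes were 0.07 ± 0.17 for Itga4, −0.39 ± 0.18 for Itga5 and −0.26 ± 0.26 for Itgb1, with adjusted p of 0.794, 0.198 and 0.530 by edgeR. With libraries scaled by total counts, which moved the median of all genes to 0.24, Itgb1 stood at 0.01. Itgb7 (16421), the beta7 gene, had 136 and 26.4 CPM in the deleted libraries and 174 and 65.5 CPM in the intact ones. It varied most within a group, 5.16-fold in the deleted pair and 2.65-fold in the intact pair, and was not called (−0.80 ± 0.77, adjusted p = 0.506).

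The members also differed between the libraries of a group, and in the same way in both groups. All 10 deviated in the same direction in libraries numbered 1 in the deleted and the intact pair. That was not particular to the members. Opposite ways in the 2 pairs went 0 of 10 stem and progenitor markers and 1 of 15 transcription factors described below. Among adaptor genes it was 15 of 41, and among other integrin subunits 5 of 16. The share over all genes was not counted. Itgam, Itgax, Itgad, Itgb2 and Itga5 were lower in library 1 than in library 2 of each pair, and Itgal, Itga4, Itgb1, Itgb3 and Itgb7 were higher. Mast cell and basophil markers were all higher in library 1 of each pair, 9 of 9, summing to 11882 and 820 CPM in the deleted libraries, against 5188 and 1972 CPM in the intact ones. Of 13 macrophage and monocyte markers 6 were lower in library 1 of each pair, 0 were higher in both, and 7 went opposite ways in the pairs. Among the 6, the receptor gene Csf1r had 156 and 403 CPM in the deleted libraries, against 258 and 352 CPM in the intact ones, and Cd68 had 214 and 456 CPM in the deleted libraries, against 674 and 992 CPM in the intact ones. By Xist and Ddx3y, library 1 was female in the deleted pair and male in the intact pair, and library 2 the reverse. With library sex as a term in the fit Itgax and Itgad were still called. Over all genes the deviations of same-numbered libraries correlated at 0.181 between these pairs, a description across genes. The part of these markers in the spread of the members was not tested.

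Markers of other cell types were read beside these changes, since in bulk RNA fewer cells of a type and less RNA per cell cannot be told apart. Of all genes 6.94% were called lower and 7.97% higher, and 17.2% and 16.7% had an unadjusted p under 0.05 by edgeR. Of 13 macrophage and monocyte markers, 0 were called by edgeR, while 6 had an unadjusted p under 0.05, 4 of them higher and 2 lower. The 13 summed to 2849 to 3907 CPM in the deleted libraries and to 3265 to 3553 CPM in the intact ones, and none was at 0. Cd68 and Ccr2 came nearest the threshold, with log2 fold changes of −1.61 ± 0.41 (adjusted p = 0.0535) and 1.24 ± 0.31 (adjusted p = 0.0501), in opposite directions. Of 10 dendritic cell markers tested, 0 were called by edgeR and 1 had an unadjusted p under 0.05, with sums of 298 to 512 CPM in the deleted libraries and 136 to 464 CPM in the intact ones. Of 9 neutrophil markers, Camp was called higher (1.80 ± 0.16) and Mmp9 (−1.97 ± 0.23) and Retnlg (−3.59 ± 0.68) lower, and Camp and Mmp9 were still called with the FOXO3 pair summed. These 9 summed to 10843 to 13064 CPM in the deleted libraries and 5533 to 11841 CPM in the intact ones. Megakaryocyte and platelet markers had 6 of 11 lower, 2 of them still called with the FOXO3 pair summed, Vwf (−1.83 ± 0.13) and Treml1 (−2.99 ± 0.37). These 11 summed to 436 to 600 CPM in the deleted libraries and 564 to 786 CPM in the intact ones. Itgb3 was lower alongside these. The part of all these markers in the members' changes was not tested.

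**Figure D3:**
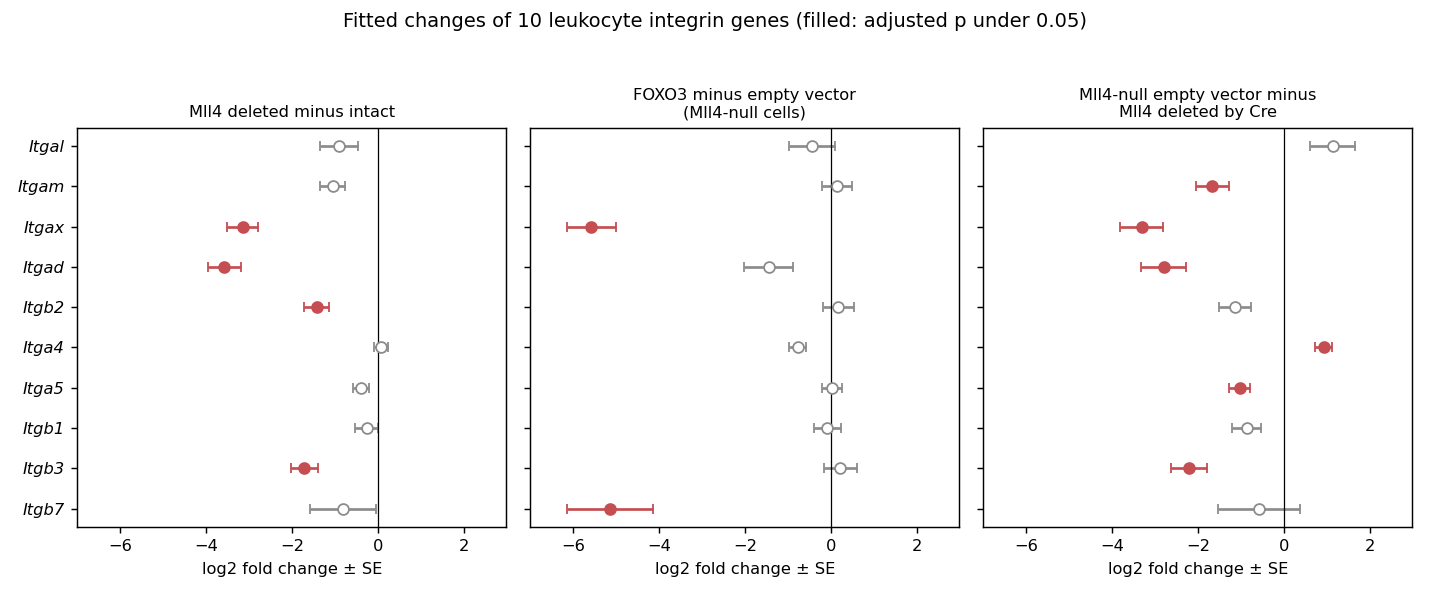
Fitted log2 fold change of each gene with its SE in the 3 comparisons of MLL-AF9 groups; filled points are those called at an adjusted p under 0.05. Itgax is the member called in each of them, at −3.15, −5.58 and −3.31.

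FOXO3 expression was then compared with the empty vector in Mll4-null MLL-AF9 cells. Itgax and Itgb7 were lower with FOXO3, while beta1, beta2, beta3, CD11b and alpha5 genes stood close to their level with the empty vector. Of the 10 members 2 were called lower and 0 higher by edgeR, where 7.13% of all genes were called, 4.93% lower and 2.2% higher. DESeq2 called 3 members lower and 0 higher, where it called 8.83% of all genes lower and 5.35% higher. At an unadjusted p under 0.05 there were 4 members lower and 0 higher, beside 14.3% of all genes lower and 8.76% higher. With the FOXO3 pair summed 1 member was called, Itgax, where 1.19% of all genes were called. The median log2 fold change of the members was −0.26, beside −0.04 over all genes. The empty vector had 1 library, which the fit assumes to vary like the other groups.

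Itgax had 7 and 4 counts in the FOXO3 libraries, 0.189 and 0.0891 CPM, against 334 counts or 6.36 CPM with the empty vector. Its log2 fold change was −5.58 ± 0.58 (adjusted p = 0.00700 by edgeR, and 0.0412 with the FOXO3 pair summed). It missed the threshold without FOXO3 library 2 (adjusted p = 0.0559). Itgb7 had 1.75 and 1.63 CPM with FOXO3, against 57.6 CPM with the empty vector, a log2 fold change of −5.14 ± 1.01 (adjusted p = 0.0412 by edgeR). That call was lost with the FOXO3 libraries summed (adjusted p = 0.199) and with library sex as a term (adjusted p = 0.104). It was lost as well without either intact or either FOXO3 library (adjusted p from 0.0842 to 0.215). The empty-vector level of Itgb7 lay within the range of the Cre experiment, 26.4 to 174 CPM, and both FOXO3 libraries lay far below it. Itgad, already low, had 15 and 10 counts with FOXO3, or 0.404 and 0.223 CPM, against 43 counts or 0.819 CPM with the empty vector (−1.45 ± 0.57, adjusted p = 0.209). Per 100 Itgax counts there were 214 and 250 Itgad counts with FOXO3 and 12.9 with the empty vector.

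The other members were not called. Itga4 had 113 and 116 CPM with FOXO3, against 188 CPM with the empty vector, a log2 fold change of −0.77 ± 0.20 (adjusted p = 0.0833 by edgeR). It passed without either library labelled Mll4 deleted (adjusted p = 0.0426 and 0.0361). Itgal, at 141 CPM in both FOXO3 libraries and 185 CPM with the empty vector, stood at −0.44 ± 0.53 (adjusted p = 0.692). Itgb2 had 447 and 449 CPM with FOXO3, against 382 CPM with the empty vector. Itgam had 291 and 294 CPM with FOXO3, against 257 CPM with the empty vector, and Itgb3 23.6 and 24.0 CPM, against 19.8 CPM. Their log2 fold changes were 0.18, 0.14 and 0.22, each smaller than its SE. Both FOXO3 libraries thus stood slightly above the empty-vector one for these 3 genes. Itgb1 had 272 CPM in both FOXO3 libraries, against 277 CPM, and Itga5 60.6 and 59.0, against 56.7 CPM. A miss of the threshold does not show that these levels are equal.

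Several lineages' markers moved in this comparison. Of all genes 4.93% were called lower and 2.2% higher, and 14.3% and 8.76% had an unadjusted p under 0.05 by edgeR. All 6 erythroid markers tested were called lower, with sums of 4.50 to 5.72 CPM with FOXO3, against 547 CPM. Of 7 eosinophil markers 4 were lower, with sums of 9.73 to 10.5 CPM, against 359 CPM. Of 13 macrophage and monocyte markers 5 were lower, Mrc1 (−4.49 ± 0.35) among them. Their sum was 2046 to 2100 CPM with FOXO3 and 1133 CPM with the empty vector. Ly6c2 alone had 2053 and 1997 CPM of that with FOXO3 and 992 CPM with the empty vector, and C1qa and C1qb were at 0 with FOXO3. Of 10 dendritic cell markers tested 2 were called lower, and 6 had an unadjusted p under 0.05, all lower, with a median log2 fold change of −3.72. The list summed to 17.1 to 18.1 CPM with FOXO3 and 22.9 CPM with the empty vector. Xcr1 alone had 16.3 and 17.3 CPM of that with FOXO3 and 14.7 CPM with the empty vector. Megakaryocyte and platelet markers had 0 of 11 called by edgeR and 4 at an unadjusted p under 0.05, all lower, with sums of 40.7 to 41.0 CPM, against 201 CPM. Of 9 mast cell and basophil markers 2 were lower, Mcpt8 (−5.41 ± 0.92) and Prss34 (−7.80 ± 1.07), and the 9 summed to 510 to 518 CPM with FOXO3, against 2520 CPM. Mcpt8 had 14.6 and 15.6 CPM with FOXO3, against 621 CPM, and like Itgb7 stood in that empty-vector library within its range in the Cre experiment, 180 to 962 CPM. Kit and Mcpt4 of the same list went the other way and were not called. Kit had 181 and 186 CPM with FOXO3, against 112 CPM, and Mcpt4 40.4 and 41.4 CPM, against 18.7 CPM. Of 9 neutrophil markers Camp was lower (−1.35 ± 0.18), and the 9 summed to 3376 to 3477 CPM with FOXO3, against 7990 CPM. Most of these calls were lost with the FOXO3 pair summed, where 1.19% of all genes were called. Then 1 erythroid marker (Car1), 1 eosinophil marker (Epx) and 1 macrophage and monocyte marker (Mrc1) were still called. Of the dendritic cell, mast cell and basophil, and neutrophil markers 0 were. The part of all these markers in the Itgax and Itgb7 values was not tested.

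The empty-vector cells of the Mll4-null transformation were also set beside the cells labelled Mll4 deleted by Cre. Transformation, vectors, selection and the way of deletion differ together and cannot be told apart, and this comparison shares libraries with both others. Of the 10 members 5 were called lower and Itga4 higher, where 21.7% of all genes were called, 12.2% lower and 9.54% higher. The members' median was −1.09, beside 0.00 over all genes. Itgax had 6.36 CPM in the empty-vector library, against 43.5 and 75.8 CPM (−3.31 ± 0.50, adjusted p = 0.0127 by edgeR), and Itgad 0.819 CPM, against 4.02 and 6.84 CPM (−2.80 ± 0.53, adjusted p = 0.0213). These 2 were still called with the FOXO3 pair summed, at adjusted p of 0.0307 and 0.0419, where 6.97% of all genes were called. The calls of Itgb3 (−2.20 ± 0.42), Itgam (−1.66 ± 0.38), Itga5 (−1.03 ± 0.23) and Itga4 (0.93 ± 0.20) were not, at adjusted p of 0.0553, 0.0807, 0.0805 and 0.0919. With library sex as a term Itgax alone of these 6 was called, and Itgad missed the threshold (adjusted p = 0.0562). Itgal had 185 CPM in the empty-vector library, against 112 and 47.0 CPM (1.14, adjusted p = 0.171), and with Itgam lower its share of the beta2 partners was 40.6%, against 15.4% and 4.10%. Macrophage and monocyte markers had 11 of 13 lower, summing to 1133 CPM in the empty-vector library, against 2849 to 3907 CPM. Of 10 dendritic cell markers tested 5 were lower, with sums of 22.9 CPM, against 298 to 512 CPM. Of 9 neutrophil markers 3 were lower, with sums of 7990 CPM, against 10843 to 13064 CPM. All 6 erythroid markers tested were higher, with sums of 547 CPM, against 9.27 to 30.5 CPM. With the FOXO3 pair summed 10 macrophage and monocyte, 5 dendritic cell, 2 neutrophil and 4 erythroid markers were called. The part of these markers in the integrin levels was not tested.

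Across the MLL-AF9 groups Itgax was lowest in Mll4-null cells with FOXO3, then came Mll4-null cells with the empty vector, cells deleted by Cre and intact cells. Group means, at 0.139, 6.36, 59.6 and 431 CPM, were each separated from the next by more than 2 pooled SDs of the log2 values (1.12). Itgad had the same order, at 0.314, 0.819, 5.43 and 52.4 CPM, with each step beyond 2 pooled SDs as well. Its first step, however, rests on 15 and 10 counts with FOXO3, against 43 in 1 empty-vector library, and was not called by edgeR (adjusted p = 0.209). For Itgb2, Itgam and Itgb3 the deleted group was next below the intact one, apart from it by more than 2 pooled SDs. For Itgam that step was 0.824 against 0.701, and its change was not called by edgeR (adjusted p = 0.0647). The pooled SDs take in the FOXO3 pair, whose spread was the smallest for these genes and may be technical. Their FOXO3 and empty-vector levels did not differ beyond the spread. Itga5 and Itgb1 fell into pairs, with no difference beyond the spread between FOXO3 and empty vector or between deleted and intact cells. For Itgb1 the step between the pairs, 0.733, barely passed 2 pooled SDs (0.725), and Itgb1 was not called between empty-vector and Cre-deleted cells. Itgal and Itga4 ran otherwise, with the highest mean in the empty-vector library. For Itgal no neighbours among the MLL-AF9 means differed beyond their spread, and for Itga4 the empty-vector mean alone stood apart from its neighbour. For Itgb7 the empty-vector, deleted and intact means did not differ beyond their spread, and FOXO3 stood apart. Both LSK libraries, made otherwise from about 50 cells with heavy amplification, lay below every MLL-AF9 group for Itgam, Itgb2, Itgb1, Itgb3 and Itga4. So they did for Itga5, but the wild-type one (49.8 CPM) did not differ beyond the spread from the empty-vector library (56.7 CPM). Itgax and Itgad had 0 counts in both LSK libraries, which allows up to 0.116 CPM, little below the Itgax mean with FOXO3.

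The genes whose levels ran most like Itgax over the 7 MLL-AF9 libraries, among 9298 genes outside the list, were Naglu, Lsp1, B2m, Fth1 and Wfdc17. Their Pearson correlations of log2(CPM + 1) with Itgax were 0.998, 0.998, 0.997, 0.996 and 0.996. Fth1, the ferritin heavy chain, had 3344 and 6141 CPM in the libraries labelled Mll4 deleted, against 12283 and 17223 CPM in the intact ones. It had 376 CPM in both FOXO3 libraries, against 891 CPM with the empty vector. For Itgb2 they were Rhob, Clmp, Atp6v1d, Arl8b and Rab7, at 0.999 to 0.993. These correlations share the same 7 libraries and 4 groups and only describe the pattern.

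Of 16 other integrin subunit genes 14 were tested, and 0 were called for Mll4 loss by edgeR and 0 had an unadjusted p under 0.05 (smallest adjusted p 0.190, for Itga6). With FOXO3, 8 of the 14 had an unadjusted p under 0.05 by edgeR, 2 higher and 6 lower, beside 8.76% of all genes higher and 14.3% lower. Their list median was −0.85, beside −0.26 for the members. Among the 8 were the beta3 partners Itga2b (log2 fold change −3.15) and Itgav (0.98), neither of them called. Of the 14, 2 were called. Itgb5, at 83.7 and 83.5 CPM against 10.3 CPM, was higher (2.98 ± 0.44, adjusted p = 0.0194). Itga1, an alpha partner of beta1 that binds collagen, had 0.324 and 0.245 CPM with FOXO3, against 2.49 CPM (−3.18 ± 0.43, adjusted p = 0.0154) and was lower. Neither call was made with the FOXO3 pair summed, at adjusted p of 0.0767 and 0.0669. Among ligands, 16 of 21 were tested. For Mll4 loss only Fga was called, at 0.775 and 0.410 CPM in the deleted libraries and 0 in the intact ones, and not with the FOXO3 pair summed (adjusted p = 0.0737). With FOXO3 1 ligand gene was called higher and 3 lower, among them Icam4, a red-cell ligand (−3.58 ± 0.65, adjusted p = 0.0336; 0.189 with the pair summed). The matrix gene Thbs1 was higher, at 1424 and 1456 CPM against 186 CPM (2.90 ± 0.28, adjusted p = 0.00611), and Spp1, osteopontin, lower, at 13.8 and 13.5 CPM against 345 CPM (−4.71 ± 0.46, adjusted p = 0.00623; 0.0551 with the pair summed). Cdh1, E-cadherin and a ligand of alphaE beta7, was lower too (−5.92 ± 0.31, adjusted p = 0.00152).

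Of 42 genes for integrin activation and adaptors 41 were matched and 40 tested. For Mll4 loss 4 were called lower and 0 higher by edgeR, beside 6.94% of all genes lower and 7.97% higher. At an unadjusted p under 0.05 there were 15 lower and 4 higher, beside 17.2% of all genes lower and 16.7% higher. Parvb, a parvin of the adhesion complex, had 19.6 and 25.7 CPM in the libraries labelled Mll4 deleted, against 53.9 and 62.0 CPM in the intact ones (−1.65 ± 0.19, adjusted p = 0.0110 by edgeR). The others were Zyx, zyxin (−1.25 ± 0.18), the small GTPase gene Rap1b (−0.77 ± 0.15) and Lims1 (−0.62 ± 0.14), and these 3 were not called with the FOXO3 pair summed. Parvb was also lower with FOXO3, at 3.34 and 3.30 CPM against 14.6 CPM (−2.18 ± 0.23, adjusted p = 0.00712, and 0.0633 with the pair summed), the only adaptor gene called there. Talin (Tln1) and kindlin-3 (Fermt3), which switch integrins on, were not called: log2 fold changes were −0.31 and −0.16 for Mll4 loss, and −0.06 and −0.07 with FOXO3.

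Of 15 transcription factors described at leukocyte integrin promoters, 1 was higher and 2 lower for Mll4 loss, beside 7.97% of all genes higher and 6.94% lower. With FOXO3 0 were called by edgeR, though 2 had an unadjusted p under 0.05. Myb, active in immature cells, rose to 218 and 154 CPM in the libraries labelled Mll4 deleted, against 54.4 and 38.2 CPM in the intact ones (1.74 ± 0.21, adjusted p = 0.0112 by edgeR). Irf4 fell to 9.51 and 13.5 CPM in the deleted libraries, against 22.7 and 26.4 CPM, a change of −1.38 ± 0.24 (adjusted p = 0.0771 once the FOXO3 pair was summed). Sp3 fell by 0.38 ± 0.09, and was not called either with the pair summed (adjusted p = 0.236). PU.1 (Spi1) had 290 and 370 CPM in the deleted libraries, against 303 and 347 CPM in the intact ones (−0.26 ± 0.18, adjusted p = 0.350). Runx1 had 227 and 79.0 CPM in the deleted libraries, against 96.8 and 87.1 CPM in the intact ones (0.45 ± 0.45, adjusted p = 0.522). Both thus overlapped between the groups. In the empty-vector library against the Cre-deleted ones, 12.2% of all genes were called lower and 9.54% higher. Of 14 other subunits tested 2 were lower and 0 higher, and of 16 ligands 6 were lower and 1 higher. Of 40 adaptor genes 7 were lower and 2 higher, and of 15 transcription factors 3 were lower and 4 higher. With the FOXO3 pair summed 2, 5, 3 and 3 genes of these lists were called, where 6.97% of all genes were.

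**Figure D4:**
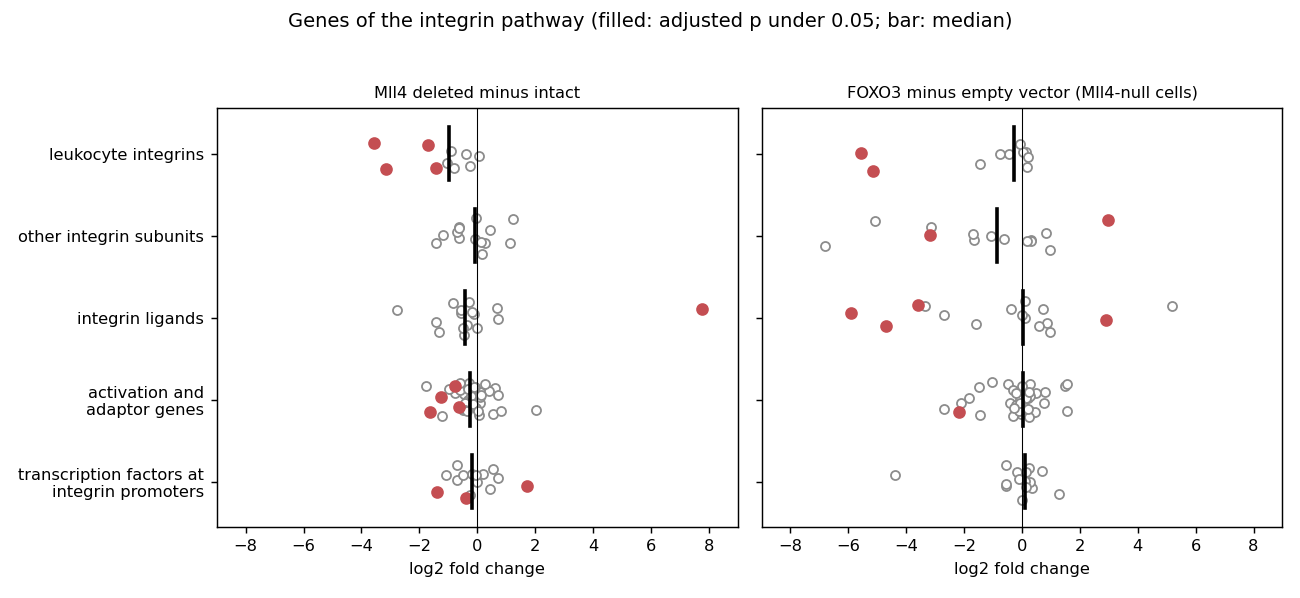
Log2 fold changes of the tested genes of 5 lists, for Mll4 deleted minus intact and for FOXO3 minus empty vector; filled points were called at an adjusted p under 0.05 and black bars are list medians. The leukocyte integrins have a median of −0.98 for Mll4 loss, and the single point far to the right for the ligands is Fga, whose counts in the intact libraries are 0.

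LSK cells had 1 library per genotype, so there was no test, and ratios carry 95% exact binomial intervals for counting error only. Ddx3y had 14.4 CPM in the library labelled Mll4 deleted and 0.827 CPM in the wild-type one, with Xist low in both, at 2.05 and 3.65 CPM. Sex may thus differ along with genotype here. Itgax, Itgad and Itgam were absent or nearly so in both libraries, while 3 members well covered in the wild-type library had 2 or 0 counts in the library labelled Mll4 deleted. Of the 7 members that averaged 1 CPM or more over both libraries, 4 were lower by over 2-fold and 0 higher. Past 2-fold were 62.9% of 10174 genes, 34.8% lower and 28.1% higher. A change of that size was thus met by most genes, and the members' share is near it.

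Itgax and Itgad had 0 counts in both LSK libraries, which allows up to 0.116 CPM in the library labelled Mll4 deleted and 0.113 CPM in the wild-type one. Itgam had 14 counts (0.541 CPM) in the deleted library, against 18 (0.677 CPM), and Csf1r was at 0 in both. Itgal had 2 counts in the deleted library, against 2154 (81.0 CPM) in the wild-type one, a log2 ratio of −10.03 (−13.08 to −8.18). In the wild-type library Itgal was 99.1% of the summed beta2 partners per kb. Itga5, Itgb7 and Itgb1 were likewise lower in the library labelled Mll4 deleted. Itga5 had 0 counts, against 1324 (49.8 CPM), at least 430-fold lower with a floor of 3 counts in the deleted library. Itgb7 had 0 counts, against 596 (22.4 CPM), at least 193-fold lower. Itgb1 had 21 counts (0.811 CPM), against 726 (27.3 CPM), a log2 ratio of −5.07 (−5.77 to −4.45).

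Itga4, Itgb2 and Itgb3 had more counts in the library labelled Mll4 deleted. Itga4 had 512 counts (19.8 CPM) in the library labelled Mll4 deleted, against 272 (10.2 CPM) in the wild-type one, a log2 ratio of 0.95 (0.74 to 1.17). Itgb2 had 180 counts (6.95 CPM), against 144 (5.41 CPM), at 0.36 (0.04 to 0.69). Itgb3 had 53 counts, against 35, at 0.64 (−0.01 to 1.30), an interval that includes 0. Near absence from 1 library was also counted over all genes. Of 4626 genes with at least 20 CPM in the wild-type library, 378 (8.17%) had 3 or fewer counts in the deleted one, and in the reverse direction 8 of 4090 genes (0.196%) did. Itgal, Itga5 and Itgb7 were among the 378, and Itgb1, with 21 counts, was the only other member at that wild-type level. The deleted library had 11141 genes with a count, against 12123 in the wild-type one. Stem and progenitor markers summed to 995 CPM in the deleted library and 1571 CPM in the wild-type one, with Slamf1 at 0 in the deleted library, and Kit and Cd34 were present in both. Markers of mast cells and basophils summed to 221 CPM in the deleted library, against 55.3 CPM, and dendritic cell markers to 747, against 381 CPM. Erythroid markers summed to 34.6, against 202 CPM, and megakaryocyte and platelet markers to 246, against 408 CPM. Macrophage and neutrophil sums were close in both libraries. The parts of amplification from about 50 cells and of which cells were picked in these absences were not tested.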

How the data were processed

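The deposited values are unnormalized counts per gene, keyed by NCBI gene number, from 9 libraries of 6 samples. TopHat2 2.0.11, Bowtie 0.12.8 and the build mm9 are named per the submitters' processing notes. For the counting tool, annotation and strand setting, nothing is given in the sources used here, and reads of overlapping or similar genes may be shared. Names came from the RefSeq table of GRCm38.p6 (23185 numbers matched, 97 not), another build, so no coordinates are given except for the promoter windows of that build. Coding lengths and 50-base words came from GENCODE vM21.

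CPM divides a count by its library's total. Overlaps between groups were judged on CPM, while log2 fold changes rest on TMM scaling, so the 2 need not agree. The TMM factors were 1.025 and 1.02 for the deleted libraries and 0.889 and 0.798 for the intact ones. The 7 MLL-AF9 libraries entered 1 edgeR 4.0.16 fit (R 4.3.3) with TMM scaling, the default expression filter, the quasi-likelihood test and Benjamini-Hochberg adjustment over all genes at 0.05, with 1 coefficient for each of 4 groups. A ± gives the SE of a log2 fold change or the SD of a level. LSK ratios have 95% exact binomial intervals, and a count of 0 allows up to 3 counts. Amplified reads are not independent molecules, so intervals and floors cover counting error only. Settings varied were the scaling (RLE, upper quartile, total count), no filter, a mean of at least 5 CPM, DESeq2 1.42.0, robust estimation, only the compared libraries, the FOXO3 pair summed, the replicate number as a block, library sex, and each library left out. In LSK cells TMM, RLE and a mean of at least 10 CPM were tried.

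The members, lists and tests were chosen with earlier results of these data known. Named genes are the 10 members, from each list the 4 with the smallest p in each of the first 2 comparisons, and the 5 genes most like Itgax and Itgb2 in pattern. Other genes named, such as Itga2b, Itgav, Tln1, Fermt3, Spi1, Runx1 and Csf1r, were chosen after their values were seen, for their roles.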

Additional observations from a re-analysis of the deposited data

Results flagged for a closer look

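The values of Itgb2 differed in sign between the 2 kinds of cells, with a small difference in LSK cells. In LSK cells its log2 ratio of the library labelled Mll4 deleted over the wild-type one was 0.36 (6.95 CPM, against 5.41 CPM; 95% exact binomial interval 0.04 to 0.69, counting error only). In MLL-AF9 cells both libraries labelled Mll4 deleted, at 630 and 965 CPM, lay below both intact ones, at 1445 and 2041 CPM, with a log2 fold change of −1.42 ± 0.29 (adjusted p = 0.0329 by edgeR, and 0.0950 with the FOXO3 pair summed). The LSK difference was smaller than 2 pooled SDs of the MLL-AF9 libraries (0.646), and 62.9% of LSK genes differed by over 2-fold, so no direction is read from it. The difference between the cell kinds was not tested, since LSK cells had 1 library per genotype.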

How the results depend on the processing

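Of the 2237 genes called for Mll4 loss, total-count scaling gave 3540 (2940 higher and 600 lower, against 1196 and 1041), DESeq2 3706, the FOXO3 pair summed 312, and leaving out 1 library 302 to 3106. The 4 compared libraries alone gave 0 by edgeR, with 3498 genes (24.7%) at an unadjusted p under 0.05. For FOXO3 the 1069 calls became 2166 by DESeq2, 178 with the pair summed and 140 to 2213 with 1 library left out. For the Mll4-null empty vector against the Cre-deleted cells, the 3260 calls became 1045 with the pair summed and 1043 to 4920 with 1 library left out. Of the members, the 4 calls for Mll4 loss became 0 in the compared libraries alone (5 at an unadjusted p under 0.05), 2 with the pair summed, 2 with library sex as a term and 2 to 5 with 1 library left out (2 without either intact or either FOXO3 library). The 2 calls for FOXO3 became 1 with the pair summed, 1 with sex and 0 to 3 with 1 library left out. The 6 of the last comparison became 2 with the pair summed, 1 with sex and 2 to 8 with 1 library left out. Past 2-fold in LSK cells were 6395 genes, or 3859 at a mean of at least 10 CPM.

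Signs turned only in members that were not called. For Mll4 loss, with 1 library left out, Itga4 ranged from −0.0687 (without intact library 2, and also below 0 without deleted library 1) to 0.244, and Itgb1 from −0.633 to 0.0806 (without deleted library 2). Itgb1 was 0.0124 with total counts. With the replicate number as a block the FOXO3 values were −0.0472 for Itgam, −0.0191 for Itgb2, −0.0854 for Itga5 and 0.105 for Itgb1. In the last comparison Itgb7 ranged from −1.32 to 0.994, the highest without deleted library 1. The causes were not tested. Same-numbered libraries correlated at 0.181, 0.022 and 0.011 between pairs of groups, so the numbers were not taken as pairing; the block gave 5, 2 and 6 member calls, adding Itgam for Mll4 loss (adjusted p = 0.0306). With 1 or 2 libraries a group, the spread is poorly known, and Itgax and Itgad with FOXO3 rest on 4 to 15 counts a library.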
